A study of Mus musculus with 12 samples.

Results

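The genes described here are 8 enzymes of cholesterol synthesis, Hmgcs1, Idi1, Fdps, Fdft1, Sqle, Lss, Cyp51 and Dhcr7, of 23 pathway genes examined in all. They were taken as a named list, and Sqle was put in it and chosen by its measured H3K4me3 peak cover in the treated and Ctrl libraries. Its narrower cover against Ctrl is therefore given as a description without a test. Of the 8 genes, 7 had a region of H3K4me3 within 1 kb of a start, among 12561 protein-coding genes that did. Fdft1 had none within 1 kb of either gene end, the only positions searched for it, and the region described for it lay inside the gene. Whether that region marks another start was not tested.

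H3K4me3 and H3K27me3 were mapped by CUT&Tag, in which an antibody directs the transposase Tn5 to a histone mark in intact cells. The material was PyMT derived organoids, also labelled tumoroids and spheroids, of breast cancer cells with the genotype given as WT. PyMT is the polyoma middle T oncogene, used in mice as a model of mammary tumours. Organoids were labelled Ctrl, SR2 or THC and taken 3 days after treatment, with 2 libraries for each mark and treatment and 500000 cells for each library. The series title concerns modulation of CB2R, a cannabinoid receptor; THC is the plant cannabinoid tetrahydrocannabinol, and SR2 is named here as the labels name it. The labels give no dose, no vehicle, no age or strain of the mice, and no statement that replicates were separate cultures or that the organoids came from more than 1 tumour. P-values therefore reflect only how these libraries vary, and that variation may be technical.

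Cholesterol is built from acetyl-CoA through mevalonate, isoprenoid units and squalene, which is oxidised and folded into the first sterol. Sqle, squalene epoxidase, adds the oxygen to squalene and is one of the control points of the pathway. When sterols are scarce, SREBP2 binds sterol regulatory elements, often beside NF-Y and Sp1 sites, and switches the pathway genes on. H3K4me3 marks the starts of active and poised genes, and H3K27me3 is the mark left by Polycomb.

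The RefSeq promoter table (GRCm38.p6, the assembly of mm10) matched 5 of the 8 genes, Hmgcs1, Idi1, Lss, Cyp51 and Dhcr7. Sqle, Fdps and Fdft1 were not matched. The promoters of 3 of the genes are printed because Hmgcs1 held the sterol regulatory element searched for, Idi1 held a pair of NF-Y boxes close to its start, and the Dhcr7 window lies at the start with the broadest mark of that gene. Each runs 5′ to 3′ from 250 bases before the start to 50 after it, and capitals mark the letters of a sterol regulatory element (TCACNCCAC) or an NF-Y box (CCAAT), on either strand.
Hmgcs1, chr13:119690101-119690400, + strand: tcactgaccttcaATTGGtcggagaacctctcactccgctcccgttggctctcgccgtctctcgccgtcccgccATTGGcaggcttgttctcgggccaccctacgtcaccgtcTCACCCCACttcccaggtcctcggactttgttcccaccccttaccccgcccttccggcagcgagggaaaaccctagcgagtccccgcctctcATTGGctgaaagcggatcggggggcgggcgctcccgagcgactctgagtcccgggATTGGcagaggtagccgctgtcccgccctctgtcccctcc
Idi1, chr13:8885356-8885655, + strand: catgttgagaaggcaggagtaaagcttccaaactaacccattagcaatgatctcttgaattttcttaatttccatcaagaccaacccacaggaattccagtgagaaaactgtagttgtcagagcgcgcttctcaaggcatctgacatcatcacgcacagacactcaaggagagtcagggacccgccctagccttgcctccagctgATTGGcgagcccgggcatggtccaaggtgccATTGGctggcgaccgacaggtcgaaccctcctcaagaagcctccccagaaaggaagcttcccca
Dhcr7, start at 143830214, chr7:143829964-143830263, + strand: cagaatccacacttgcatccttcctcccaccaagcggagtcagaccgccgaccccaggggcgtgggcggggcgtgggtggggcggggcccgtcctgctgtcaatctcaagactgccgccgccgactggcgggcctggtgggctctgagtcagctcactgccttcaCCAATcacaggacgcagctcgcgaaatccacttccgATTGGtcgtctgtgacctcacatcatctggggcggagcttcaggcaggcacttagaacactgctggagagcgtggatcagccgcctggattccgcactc

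The NF-Y box was found in a window of each of the 5 genes, and in 37.4% of all 32851 windows of the table. Hmgcs1 held 4, Idi1 2, Lss 1 and Cyp51 1. Dhcr7 held 2 at its start at 143830214 and none at its other 2 starts. The sterol regulatory element as spelled here was found once, in Hmgcs1 at position −137 from the start, against 1.24% of all windows. The GC box GGGCGG, the core of an Sp1 site, was found in a window of all 5 genes and in 35.7% of all windows. The Dhcr7 window at 143823399 held none. For both boxes the count is by gene and the share by window, and Dhcr7 has more than 1 window, so the values are not like for like. The E-box CACGTG, which SREBP proteins can also bind, was found at the start of Dhcr7 at 143823399 alone and in 7.15% of all windows. The motifs do not overlap one another in the printed windows. A match describes letters, and says nothing of binding.

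Values are given for replicate 1 and then replicate 2 throughout. The H3K4me3 lists of the Ctrl libraries held 18383 and 16442 peaks, those after SR2 14812 and 15190, and those after THC 11924 and 13229. Peaks covered 16.2 to 18.6 Mb in Ctrl, 13.3 to 15.0 Mb in SR2 and 9.02 to 12.3 Mb in THC. THC replicate 1 stood lowest, with the smallest cover and a mean peak of 756 bp against 901 to 1010 bp in the other 5. The lists hold no read totals. The 1st percentile of the background pileup recovered from sampled peaks was 0.752 to 1.52 fragments over the libraries. All 7 markers of luminal epithelium had a region, 5 of them in all 6 libraries, with a summed cover of 10552 to 11440 bp in Ctrl, 9967 to 10189 bp in SR2, and 5125 and 8953 bp in THC. Of the 3 basal markers Acta2 had no region, and the summed cover of the list was 4181 and 4366 bp in Ctrl, 2587 and 3994 bp in SR2, and 0 and 2285 bp in THC. Of the fibroblast list Col1a1 had a region in all 6 libraries, with 292 to 1142 bp, and Col1a2, Pdgfra and Pdgfrb had none. No region was found for Ptprc and Cd3e of the blood list, or for Pecam1 and Cdh5 of the endothelial list. Nor was 1 found for Adipoq, Plin1 and Fabp4 of the adipocyte list. Cd68 of the blood, Kdr of the endothelial and Lpl of the adipocyte list had a region in some libraries. Those 4 lists covered at most 1167 bp each in any library. The part of these differences between libraries in the values at the enzymes was not tested. In bulk samples a change in which cells are present and a change within cells cannot be told apart.

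Sqle stood apart from the other enzymes in Ctrl and not in the treated libraries. In the Ctrl libraries its region, chr15:59314552-59317372 in mm10 and given to no other protein-coding gene, was covered by peaks over 2720 and 2469 bp. In SR2 the cover was 1050 and 1189 bp, and in THC it was 942 and 1130 bp. All 4 treated libraries lay far below both Ctrl libraries, and SR2 and THC overlapped each other. The mean was 2594.5 ± 177 bp for Ctrl, 1119.5 ± 98.3 bp for SR2 and 1036 ± 133 bp for THC (SD, n = 2). Treated cover was 0.431 times that of Ctrl in SR2 and 0.399 times in THC.

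**Figure D1:**
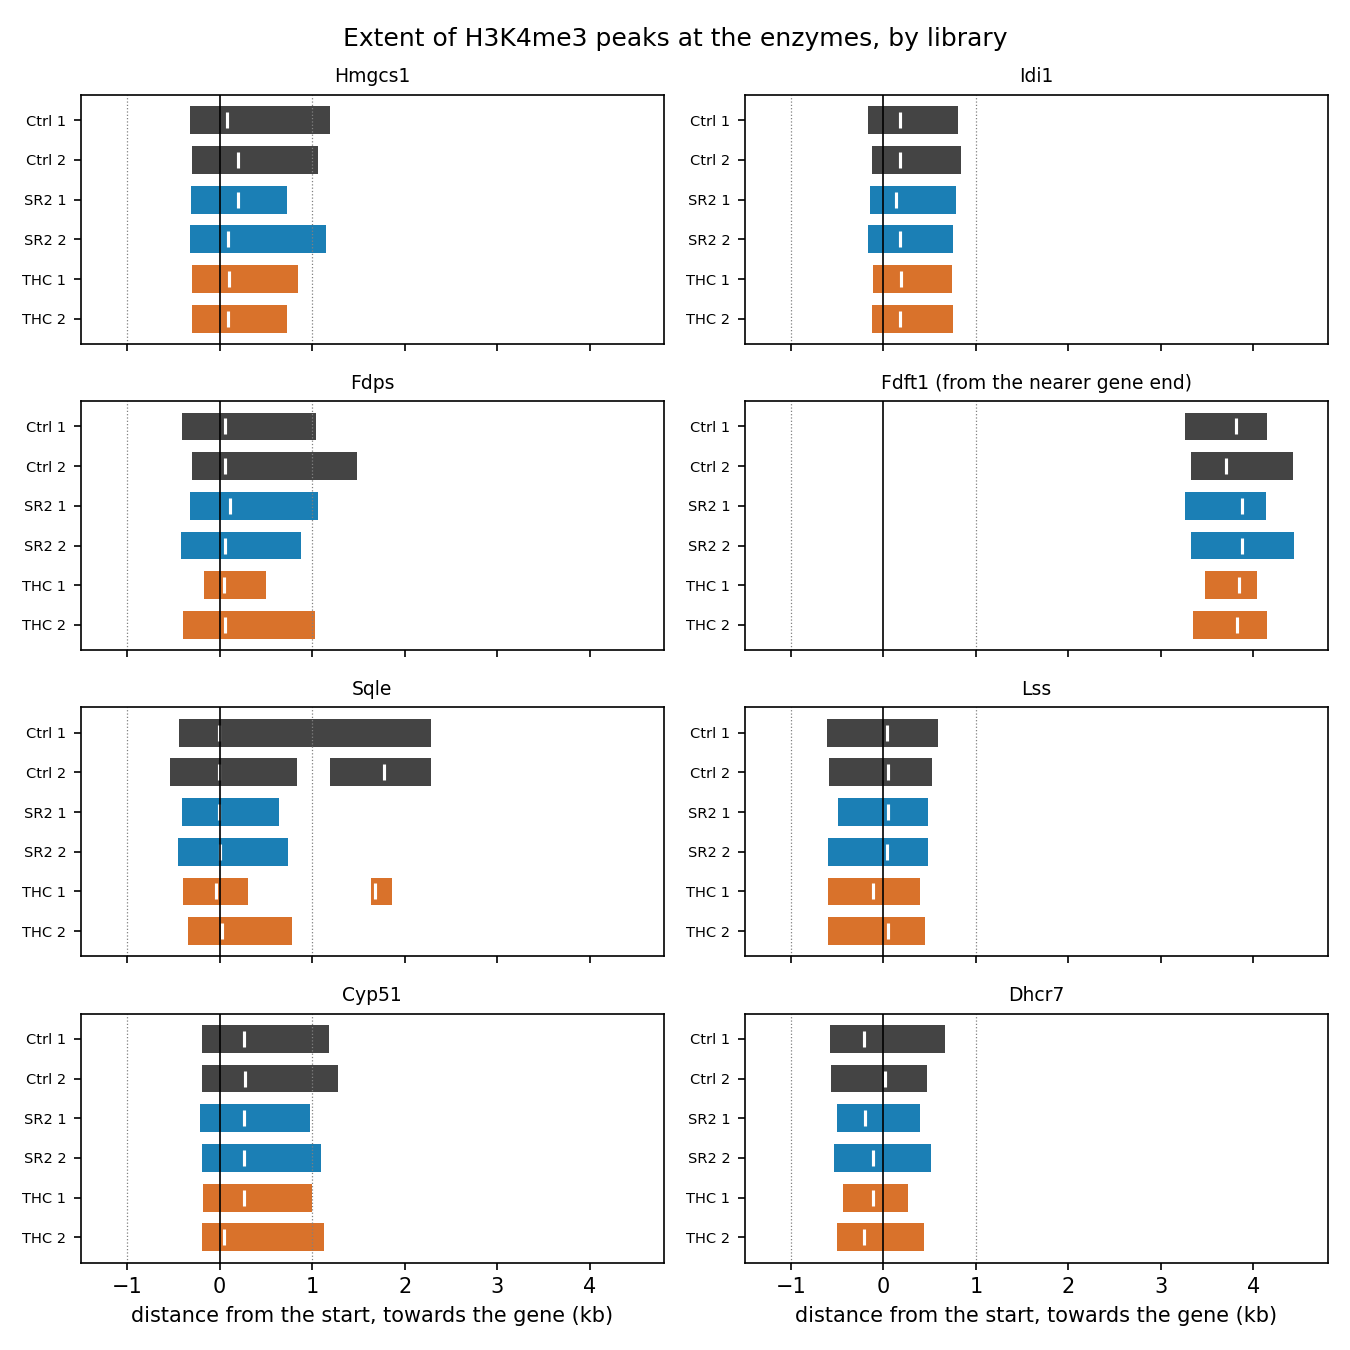
Extent of the H3K4me3 peaks at each enzyme gene in the 6 libraries. The x axis is the distance from the start towards the gene body in kb, each bar is a peak, white ticks are summits, and dotted lines mark 1 kb on either side. At Sqle the Ctrl peaks reach 2280 bp into the gene, and the SR2 peaks end at 642 and 734 bp. At Fdft1 the distance is from the nearer end of the gene, and the peaks lie inside it.

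The bp that set Sqle apart lay inside the gene, on 1 side of the start. Sqle spans 59315092 to 59331193 on chromosome 15, and its strongest summit lay between 45 bp before and 21 bp after the lower end of the gene in all 6 libraries. The outer edge of the peaks lay 439 and 540 bp before that end in Ctrl, 407 and 454 bp in SR2, and 402 and 344 bp in THC. These outer edges moved by at most 196 bp among the libraries. The inner edge lay 2280 bp into the gene in both Ctrl libraries, 642 and 734 bp in SR2, and 1865 and 785 bp in THC.

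The inner stretch was a weaker peak of its own where it was separate. In Ctrl replicate 1 a single peak of 2720 bp ran from the start to the inner edge. In Ctrl replicate 2 the cover was in 2 pieces, 1380 bp at the start and 1089 bp at chr15:59316284-59317372. The second piece had its summit 1777 bp into the gene, with 2.77-fold enrichment over the local background and a −log10 q of 9.35 in the authors' list. In THC replicate 1 a second piece of 236 bp had its summit at 1677 bp, with 3.28-fold enrichment and a −log10 q of 2.83. SR2 replicates 1 and 2 and THC replicate 2 had a single peak at the start and no second piece. The second piece was therefore listed in 1 of the 2 THC libraries and in neither SR2 library.

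Counted by distance, the cover of Sqle beyond 1 kb of the start was 1280 and 1089 bp in Ctrl, 0 and 0 bp in SR2, and 236 and 0 bp in THC. Within 1 kb it was 1440 and 1380 bp in Ctrl, 1050 and 1189 bp in SR2, and 706 and 1130 bp in THC. The part within 1 kb was also lower in every treated library than in either Ctrl library, at 0.794 times Ctrl in SR2 and 0.651 times in THC. For the other 6 enzymes with a region at the start that ratio ran from 0.851 at Dhcr7 to 0.999 at Cyp51 in SR2, and from 0.717 at Dhcr7 to 0.997 at Cyp51 in THC. Among the other genes of the pathway it was lower than at Sqle at some and higher at others. It was 0.770 in SR2 and 0.609 in THC at Msmo1, and 0.949 and 0.905 at Acat2. Without THC replicate 1 the value of THC within 1 kb at Sqle is the 1130 bp of replicate 2.

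Start regions with long cover beyond 1 kb of the start usually kept it. That cover was counted on either side of the start, so it need not be an inner part as at Sqle. In 267 regions of protein-coding starts, marked in all 6 libraries, both Ctrl libraries had at least 1000 bp beyond 1 kb, a limit set after the values of Sqle were seen. Their median share kept was 91.4% in SR2 and 68.4% in THC, against 0% and 9.96% at Sqle. Sqle was the only 1 of the 267 with no such bp in both SR2 libraries, which describes the gene and supports nothing, since it was chosen for its loss of cover. In both THC libraries 2 of the 267 had none, and Sqle was not among them.

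The height of the Sqle peak was lower in the treated libraries, as were the heights of the other enzymes. Its ratio to their median was also lower in each treated library than in either Ctrl library. The pileup at its highest summit, in fragments, was 253 and 191 in Ctrl, 78 and 127 after SR2, and 39 and 79 after THC. The median of the other 6 enzymes was 192 and 147.5 in Ctrl, 61.5 and 116 after SR2, and 34.5 and 72.5 after THC. Sqle was thus 1.32 and 1.29 times that median in Ctrl, 1.27 and 1.09 times after SR2, and 1.13 and 1.09 times after THC. At 7 of the 7 enzymes the highest summit was lower in all 4 treated libraries than in both Ctrl libraries, as it was at 89.3% of the 10124 regions marked in all 6 libraries with a recovered pileup. At the Sqle summit the local background was 28.3 and 20.8 fragments in Ctrl, 7.73 and 14.6 after SR2, and 3.98 and 8.98 after THC. The share of Sqle's lower cover that goes with lower pileup was not tested. The second piece stood at 59 fragments in Ctrl replicate 2, 30.9% of the first summit, and at 15 in THC replicate 1, 38.5% of it.

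**Figure D2:**
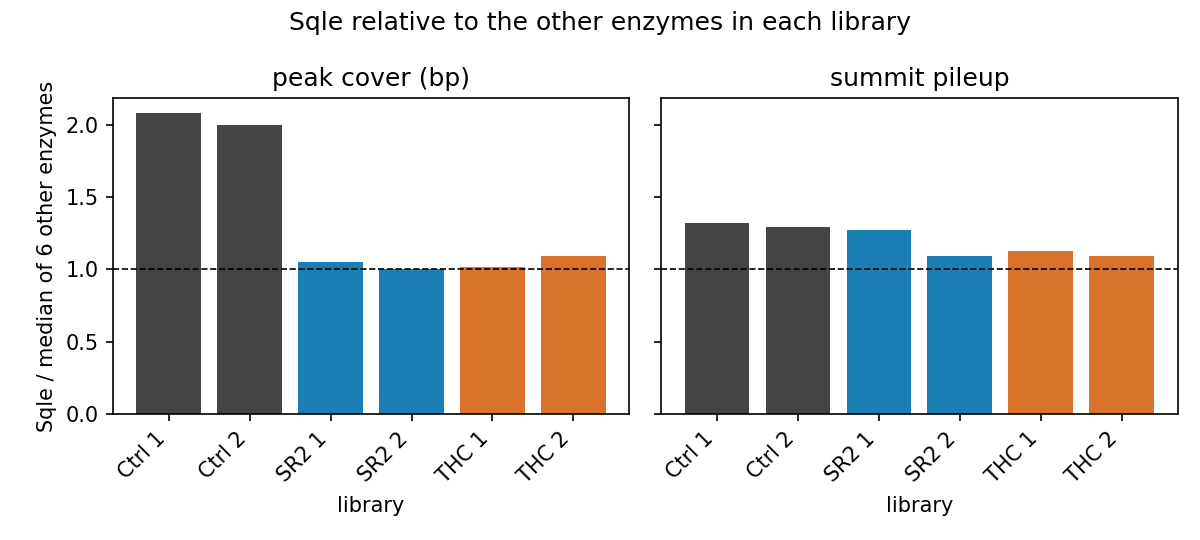
Sqle divided by the median of the 6 other enzymes with a region at the start, in each library, for peak cover in bp (left) and for pileup at the highest summit (right). Bars are single libraries, and the dashed line is a ratio of 1. In cover the Ctrl bars stand at 2.08 and 2.00 and the treated bars between 1.00 and 1.09. In height all 6 bars stand between 1.09 and 1.32.

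In cover, the ratio of Sqle to the median of the other 6 enzymes was 2.08 and 2.00 in Ctrl, 1.05 and 1.00 after SR2, and 1.02 and 1.09 after THC. Sqle was the broadest of the 7 regions in both Ctrl libraries and 3rd or 4th of them in each treated library. By rank within its own list, its region stood at percentile 99.3 and 98.8 of all regions by cover in Ctrl, 63.4 and 67.4 after SR2, and 68.6 and 68.2 after THC. By −log10 q of its strongest peak it stood at percentile 93.9 and 93.6 in Ctrl, 88.5 and 85.4 after SR2, and 87.7 and 79.7 after THC. The fold enrichment of that peak in the authors' lists was 8.67 and 8.83 in Ctrl, 9.05 and 8.18 after SR2, and 8.04 and 8.01 after THC. The lists differ in length, so no change is read from the ranks.

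Breadth was compared by limma on log2(covered bp + 200), with the libraries centred on 10140 regions marked in all 6 and all 15772 regions tested together. Regions called at an adjusted p under 0.05 made up 0% in each of the 3 comparisons. At an unadjusted p under 0.05, 1405 regions were narrower and 103 wider in SR2 than in Ctrl, 2903 narrower and 695 wider in THC than in Ctrl, and 1079 narrower and 290 wider in THC than in SR2. Other settings gave other counts of calls, which are listed among the effects of the processing. Both treatments are set against the same Ctrl libraries. The log2 change at Sqle was −0.94 for SR2 against Ctrl and −0.80 for THC against Ctrl (SE 0.07 for each), again as a description. Its change less the median change of the other 6 enzymes was −0.90 for SR2 and −0.92 for THC. Between the treatments, the comparison that did not choose Sqle, its log2 change was 0.14 for THC against SR2 (SE 0.07, limma adjusted p 0.646), and 0.02 less the median of the others.

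The members next to Sqle in that order were Fdps and Hmgcs1 or Dhcr7. Fdps changed by −0.09 for SR2 and −0.22 for THC on the log2 scale (SE 0.23), and the next values were −0.05 for SR2, at both Hmgcs1 and Dhcr7, and −0.02 for THC, at Dhcr7. Among the 10140 regions marked in all 6 libraries, Sqle was the 7th narrowest in SR2 against Ctrl and the 118th in THC against Ctrl. Among 244 regions whose mean Ctrl cover was within 10% of that of Sqle, it was 2nd and 15th. Their median log2 change was 0.01 for SR2 and −0.09 for THC. Over all regions tested it was 1897th and 4001st.

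**Figure D3:**
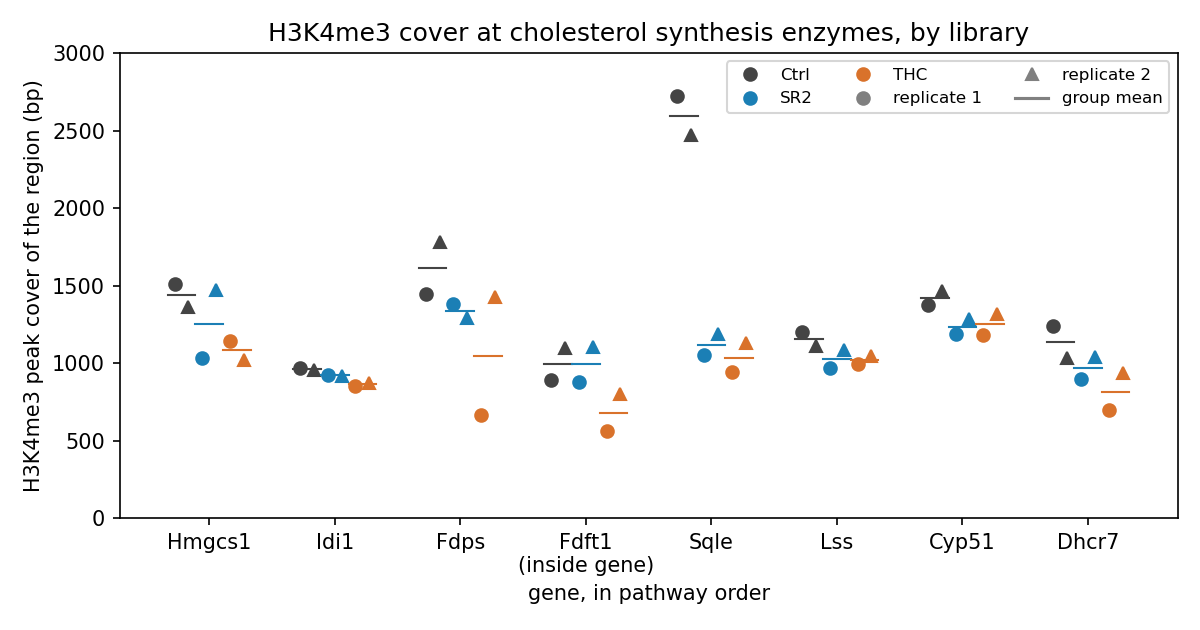
H3K4me3 peak cover of each enzyme's region in bp, by library, in pathway order. Circles are replicate 1, triangles replicate 2 and lines group means; for Fdft1 the region is the 1 inside the gene. Sqle in Ctrl, at 2720 and 2469 bp, lies above every other point, of which the highest is Fdps in Ctrl replicate 2 at 1781 bp.

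The enzymes before squalene carried the mark in all 6 libraries, Fdft1 inside the gene and the others at the start, and limma called none of them. Hmgcs1, which joins acetyl-CoA to acetoacetyl-CoA at the entrance of the pathway, covered 1513 and 1362 bp in Ctrl, 1032 and 1470 bp in SR2, and 1146 and 1018 bp in THC. Its SR2 replicate 1 lay below both Ctrl libraries and SR2 replicate 2 between them, and both THC libraries lay below Ctrl. Its region, chr13:119690035-119691547, covers the whole promoter window printed above in all 6 libraries. Idi1, which interconverts the 2 isoprenoid building blocks, covered 969 and 959 bp in Ctrl, 927 and 915 bp in SR2, and 855 and 871 bp in THC. The 3 groups at Idi1 did not overlap, with replicates within 16 bp of each other. The fold enrichment at Idi1 was 12.3 to 14.1 in the authors' lists, over a narrow region (chr13:8885439-8886441).

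Fdps, which makes farnesyl diphosphate, covered 1444 and 1781 bp in Ctrl, 1384 and 1290 bp in SR2, and 667 and 1429 bp in THC (chr3:89100484-89102382). Its THC libraries were 762 bp apart, more than the distance of the THC and Ctrl means, and THC replicate 1 was the low library. Fdft1, squalene synthase, had no region within 1 kb or 2 kb of either end of the gene in the table. Its region chr14:63177255-63178428 began 3259 bp inside the higher end of the gene and covered 892 and 1101 bp in Ctrl, 881 and 1106 bp in SR2, and 562 and 802 bp in THC. SR2 and Ctrl overlapped there, and both THC libraries were lower than both of these groups. The log2 change was 0.13 for SR2 and −0.07 for THC against Ctrl (SE 0.15, limma adjusted p 0.956 and 0.788).

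Lss, Cyp51 and Dhcr7, the enzymes of the list after Sqle, showed no loss of an inner stretch comparable in bp. Lss, lanosterol synthase, which folds the product of Sqle into the first sterol, covered 1202 and 1110 bp in Ctrl, 968 and 1085 bp in SR2, and 994 and 1047 bp in THC (chr10:76530992-76532193). All 4 treated libraries were below both Ctrl libraries, by as little as 25 bp. Cyp51, the lanosterol demethylase, covered 1372 and 1464 bp in Ctrl, 1187 and 1283 bp in SR2, and 1182 and 1318 bp in THC (chr5:4103422-4104907). Its bp within 1 kb of the start were nearly constant, with group means of 1189, 1188 and 1185.5 bp, and its bp beyond 1 kb averaged 229 in Ctrl, 47.0 in SR2 and 64.5 in THC.

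Dhcr7, which makes cholesterol from its last precursor, 7-dehydrocholesterol, has 3 starts in the table and had its broadest mark at the one farthest into the gene. That region, chr7:143829637-143830879, covered 1243 and 1032 bp in Ctrl, 897 and 1040 bp in SR2, and 696 and 935 bp in THC. SR2 and Ctrl overlapped. Both THC libraries were lower than both Ctrl libraries, and THC replicate 2 lay above SR2 replicate 1. A second region, chr7:143822139-143823278, lies at the outermost start and is shared with the gene Nadsyn1, so its cover cannot be given to 1 of the genes. It covered 1140 and 866 bp in Ctrl, 691 and 874 bp in SR2, and 633 and 866 bp in THC.

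By count, both SR2 libraries had less cover than both Ctrl libraries at 5 of the 7 enzymes with a region at the start, against 49.4% of all 15772 regions and 48.5% of the 10140 marked in all 6. Both THC libraries had less than both Ctrl libraries at 7 of 7, against 80.3% and 84.3%. All 4 treated libraries were below Ctrl at 5 of 7, against 46.3%, and both THC libraries were below both SR2 libraries at 1 of 7, Idi1, against 40.6%. Less cover in THC than in Ctrl was thus the state of most regions. After centring, the log2 changes of the 6 enzymes other than Sqle ran from −0.09 to 0.08 for SR2 and from −0.22 to 0.25 for THC, with medians of −0.04 and 0.12. Over all regions the medians were −0.03 and −0.15. By limma none of the 6 was called, with adjusted p of 0.996 to 1.00 for SR2, 0.239 to 0.938 for THC and 0.525 to 0.893 for THC against SR2.

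**Figure D4:**
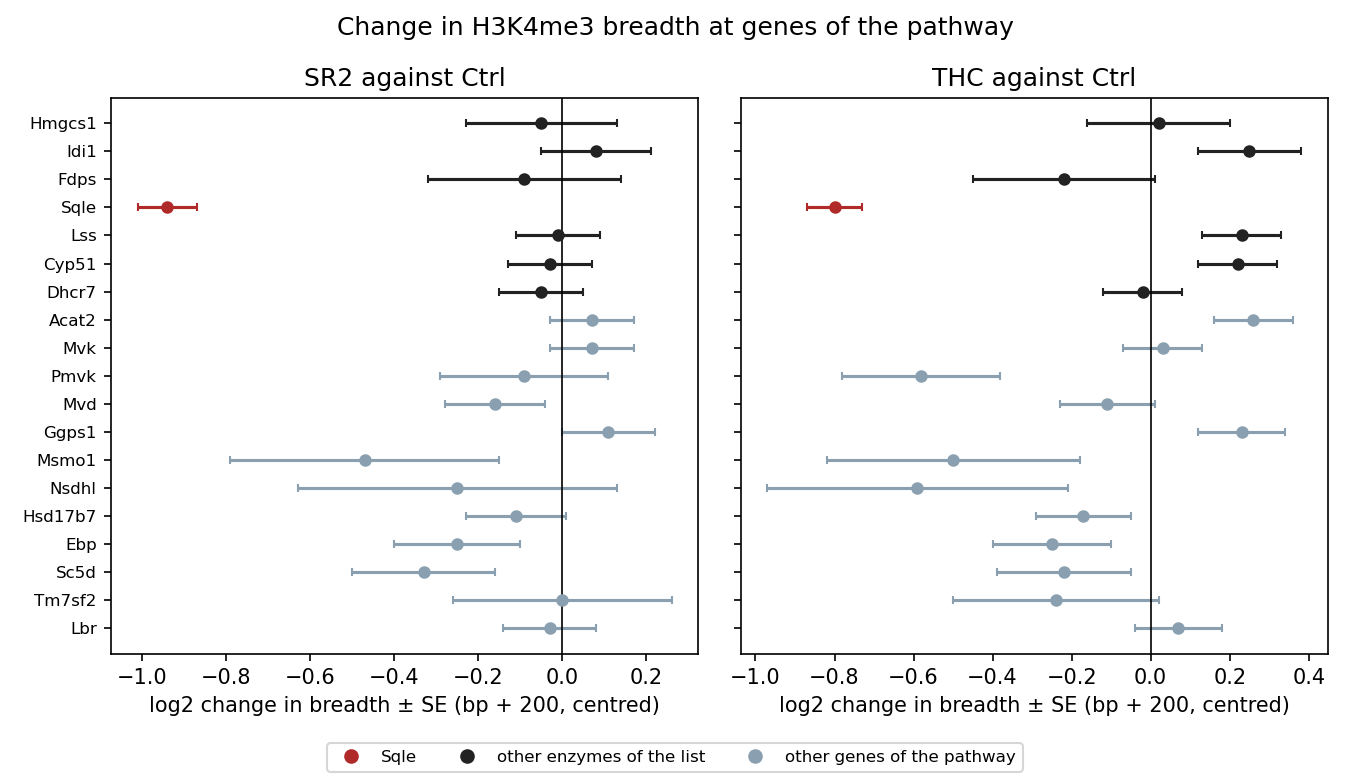
Log2 change of H3K4me3 breadth ± SE from limma for SR2 against Ctrl (left) and THC against Ctrl (right), on log2(covered bp + 200) after centring. Red is Sqle, black the other enzymes of the list and grey 12 other genes of the pathway. Sqle lies at −0.94 and −0.80, and Msmo1 is the lowest of the grey points on the left, at −0.47.

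Of 15 other genes of the pathway, 14 had a region at the start and Idi2 had none. For SR2, 12 of the 14 had both libraries below both Ctrl libraries, against 49.4% of all regions tested, and for THC 14 of 14 did, against 80.3%. The median log2 change was −0.10 for SR2 and −0.20 for THC, and limma called 0 of the 14 in either comparison, with 1 and 3 of them at an unadjusted p under 0.05, against 9.56% and 22.8% of all regions tested. Acat2, which makes acetoacetyl-CoA, had the highest value for THC, at 0.26 (SE 0.10, limma adjusted p 0.217). It was among the 3 for THC, with a limma unadjusted p of 0.0483. The value is positive only after centring, since its cover was 1191 and 1168 bp in Ctrl and 1032 and 1104 bp in THC.

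The lowest value for SR2 was at Msmo1, which removes methyl groups from sterols, and it was smaller in size than at Sqle. The log2 change of Msmo1 was −0.47 for SR2 (SE 0.32, limma adjusted p 0.885). The inner edge of its peaks lay 1463 and 1560 bp into the gene in Ctrl. That edge lay at 436 and 1433 bp after SR2, and at 403 and 1263 bp after THC. The bp of Msmo1 beyond 1 kb were 463 and 560 in Ctrl, 0 and 433 after SR2, and 0 and 263 after THC. Replicate 1 of each treatment thus had no such bp and replicate 2 had some.

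The 5 genes whose cover ran most like that of Sqle over the 6 libraries, of 7694 compared, were Rxra, Ppil1, Mreg, Stk11 and Cdc42bpa. The measure was the root mean square difference of the centred log2 profiles, each less its own mean, and it was 0.0713 at Rxra, 0.101 at Ppil1, 0.138 at Mreg, 0.160 at Stk11 and 0.174 at Cdc42bpa. Rxra, a nuclear receptor gene, covered 1711 and 1577 bp in Ctrl, 618 and 797 bp in SR2, and 505 and 733 bp in THC. Its 4 treated libraries lay below both Ctrl libraries, as at Sqle. Stk11, the gene of the kinase LKB1, covered 2534 and 2760 bp in Ctrl, 1000 and 1300 bp in SR2, and 815 and 1431 bp in THC. These genes were picked for likeness, so no more than likeness is shown.

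H3K27me3 was not listed at Sqle in any library, within the gene or 5 kb on either side, nor at Fdps, Fdft1 or Cyp51. It was listed at 4 of the 8 enzymes, and at 11.7% of 21883 protein-coding genes. By overlap with the gene alone it was listed at 3 enzymes. The peak counted for Dhcr7 lay before the gene, on the region shared with Nadsyn1. The 6 peaks at these enzymes were weak, with −log10 q of 1.19 to 2.19 and fold enrichment of 3.39 to 4.92 in the authors' lists. Hmgcs1 had one in SR2 replicate 1 and THC replicate 1, Idi1 in Ctrl replicate 1 and THC replicate 2, and Lss and Dhcr7 in THC replicate 1. No enzyme had one in both libraries of a group, and all 6 lay on an H3K4me3 region. Of the other pathway genes 6 of 15 had one, in 8 peaks of which 7 lay on an H3K4me3 region. The H3K27me3 lists were short and uneven, with 70 to 2712 peaks, of which 32.0% to 85.7% lay on an H3K4me3 region. The absence of a listed peak at Sqle does not show that the mark is absent.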

How the data were processed

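H3K4me3 (narrow peaks) and H3K27me3 (broad peaks) were each mapped in 6 libraries. The authors deposited 1 peak list for each library, with peaks called in single libraries. Per the submitters' processing notes the build was mm10 and the tools included MACS3, bedtools, Bowtie2 2.5.4, SAMtools 1.8 and cutadapt 5.2, besides deepTools and Picard, with no roles given. In the deposited lists each peak has a score, a fold enrichment (ratio) over local background, and −log10 p and −log10 q; these are the authors' values. The use of a control library in calling: not given in the sources used here.

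From the lists, peaks of chromosomes 1 to 19, X and Y that overlapped by at least 1 bp were merged into 24596 H3K4me3 regions, and the bp covered in each library were counted. A gene got the region with the most cover within 1 kb of a start of the RefSeq promoter table, or of either gene end where the table has none. That rule was written here; strand was thus used for 5 of the 8 enzymes. Distances are towards the gene body. Summit pileup was recovered from the fold enrichment and −log10 p, with at least 99.9% of sampled peaks matching a whole number within 0.01 in −log10 p. Breadth was tested with limma 3.58.1 (R 4.3.3, trend, adjustment by Benjamini-Hochberg) on log2(covered bp + 200), in regions marked in at least 2 libraries, and the fit was tested on simulated data. Counts and ranks used Python 3.11.15 with pandas 2.3.3 and scipy 1.17.1. At most 0.596% of peaks had identical intervals in 2 libraries, so n = 2 was kept.

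The labels give the replicate number as the batch, which pairs libraries of different groups. Deviations of same-numbered libraries correlated at −0.0619 (Ctrl and SR2), 0.0344 (Ctrl and THC) and 0.0479 (SR2 and THC) over 15772 regions. The design named the other 7 enzymes as the comparison for Sqle. Fdft1 had no region at either gene end, so 6 were used. The enzymes, the 15 other pathway genes, the markers and the motifs were chosen with earlier results of these data known. All 8 enzymes are named; of the other pathway genes, those with the highest or lowest change against Ctrl or with no region, except that some items are not reported here; and the 5 genes most like Sqle.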

Additional observations from a re-analysis of the deposited data

How the results depend on the processing

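The change at Sqle less the median of the other enzymes, −0.90 for SR2 and −0.92 for THC against Ctrl, kept its sign under all alternatives run. A pseudocount of 50 bp gave −0.98 and −1.0, a pseudocount of 1000 bp −0.65 and −0.65, and counting only the bp within 1 kb of the start −0.19 and −0.36, an alternative added after seeing the data. For THC, keeping peaks whose −log10 q reached 5 gave −1.09, and it was −0.83 with the region inside Fdft1 among the others, also added later. Leaving out 1 library gave −0.98 to −0.90 for SR2, −1.04 to −0.87 for THC, and −0.12 to 0.02 for THC against SR2. That last difference, 0.02, was −0.14 for peaks whose −log10 q reached 5 and −0.18 within 1 kb.

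Counts of regions called by limma, 0 in each comparison, depended on the setting. With a pseudocount of 50 bp they were 1059 for SR2 and 1417 for THC against Ctrl, and without centring 994 and 1914. For THC against Ctrl testing regions marked in any library gave 39, and an equal number of peaks from each library gave 4. Leaving out 1 library gave 0 to 2183 for THC against Ctrl and 0 to 1189 for THC against SR2, the highest without THC replicate 2, which left THC with 1 library assumed to vary like the others. Sqle was among the calls under 2 of 16 such fits for SR2 and 4 of 16 for THC, which is no test of Sqle. None of the other 6 enzymes was called under any. Without centring all log2 changes shift by −0.14, −0.38 and −0.24 for SR2 and THC against Ctrl and THC against SR2. Over all alternatives and comparisons together, 26 of 324 values at the other enzymes had the opposite sign to the main fit. With the replicate block (pairing by batch) 0 regions were called in each comparison and the change at Sqle less the others stayed at −0.90, −0.92 and 0.02, so the block changed no call. With 2 libraries in each group and no read totals, small differences in breadth cannot be resolved, and peak edges move with signal over background.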
